A study of Mus musculus with 17 samples.

Results

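The AP-1 family genes Fos, Fosb, Fosl1, Fosl2, Jun, Junb, Jund and Atf3 were chosen by name, and all loops of the 17 H3K27ac HiChIP libraries that had an anchor no more than 5 kb from their start sites were taken. These 8 of 22372 protein-coding genes had 10 of 216081 anchors and 654 of 1211657 loops. HiChIP ligates pieces of chromatin that lie together in the nucleus and pulls down those with H3K27ac, a mark of active promoters and enhancers. A read pair between 2 anchors therefore counts a contact that also carries the mark, and is not a measure of RNA.

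All libraries came from R1 mouse embryonic stem cells that formed embryoid bodies (EBs) in hanging drops and then grew in 0.5 µM retinoic acid (RA) for 4 days. The 12 bulk libraries hold unsorted EB cells. The 5 libraries labelled cluster2 hold EpCAM/CD38 double positive cells sorted by FACS from such EBs and fixed afterwards, so cell type and sorting cannot be told apart in this design. Double positive cells are also part of the unsorted mixture. Per the methods, the double positive cells came from independent sorting experiments. Neither the labels nor the methods say whether the bulk libraries came from separate cultures, so the spread between them that enters the p-values may be technical. In a mixture, fewer cells with a contact and fewer contacts per cell cannot be told apart.

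AP-1 is a dimer of basic leucine zipper (bZIP) proteins. Fos proteins need a Jun partner, whereas Jun proteins can also pair among themselves or with ATF proteins. Such dimers bind the site TGAGTCA, and Jun with ATF partners also binds sites with TGACG. Fos, Fosb, Jun, Junb and Atf3 are immediate early genes, switched on within minutes to hours by growth factors and stress through MAPK kinases. In the mouse embryo, Fosl1 and Junb are known for their need in extraembryonic tissues, and Jun for its need in the fetal liver.

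Bulk libraries held 65178 to 241202 read pairs in loops and double positive libraries 50508 to 118179. Loops with both anchors in the loops of both groups, called shared anchors here, held 8.40% to 16.1% of a bulk library and at least 99.98% of a double positive one. The files do not show whether other anchors were not called in double positive cells or had no read pair there, so each member is given on all anchors and on shared anchors. Values of single loops are on all anchors where nothing else is said. Since read pairs decide which anchors are shared, this second setting holds no anchor without double positive read pairs. Read pairs were summed per gene and given as CPM, counts relative to the total of the library after TMM scaling, which assumes that most genes do not change. Its factors were 0.556 to 0.789 in bulk and 2.41 to 2.63 in double positive libraries, so the scaling matters. The median log2 fold change of the 13712 tested genes, double positive over bulk, was -0.43 with TMM and 1.38 with library size alone, and that of the 9749 tested on shared anchors was 0.34, so changes are best read against these medians. A feature was called when its adjusted p in edgeR's quasi-likelihood test was under 0.05.

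The bases before the start site are shown for the 3 members called higher on both sets of anchors (Fos, Fosb and Fosl2) and for the 2 called lower on all anchors (Jun and Atf3). Each run holds the 250 bases before the outermost annotated start site in mm9, 5′ to 3′ on the gene's strand, with TGACG (or its complement CGTCA) and TATAAA in capitals.
Fos, chr12:86814590-86814839, plus strand: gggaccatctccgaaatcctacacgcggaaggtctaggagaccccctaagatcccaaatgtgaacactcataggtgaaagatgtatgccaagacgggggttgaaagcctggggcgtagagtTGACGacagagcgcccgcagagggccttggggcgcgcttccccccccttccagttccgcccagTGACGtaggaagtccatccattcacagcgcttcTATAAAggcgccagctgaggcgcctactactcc
Fosb, chr7:19895395-19895644, minus strand: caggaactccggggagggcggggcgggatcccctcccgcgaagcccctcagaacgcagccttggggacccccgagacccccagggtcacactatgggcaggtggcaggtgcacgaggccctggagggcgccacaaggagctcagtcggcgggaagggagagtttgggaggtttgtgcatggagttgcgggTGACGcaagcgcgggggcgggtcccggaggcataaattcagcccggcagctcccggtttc
Fosl2, chr5:32438595-32438844, plus strand: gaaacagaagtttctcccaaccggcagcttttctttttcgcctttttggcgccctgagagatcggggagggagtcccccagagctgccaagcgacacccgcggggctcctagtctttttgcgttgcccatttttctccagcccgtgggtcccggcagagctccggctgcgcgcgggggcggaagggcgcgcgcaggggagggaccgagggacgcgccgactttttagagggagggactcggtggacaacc
Jun, chr4:94718914-94719163, minus strand: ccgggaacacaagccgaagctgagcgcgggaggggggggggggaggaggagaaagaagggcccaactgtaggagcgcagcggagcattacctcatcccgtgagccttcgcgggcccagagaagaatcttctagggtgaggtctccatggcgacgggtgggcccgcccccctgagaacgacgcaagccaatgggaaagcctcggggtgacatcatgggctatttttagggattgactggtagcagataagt
Atf3, chr1:193007220-193007469, minus strand: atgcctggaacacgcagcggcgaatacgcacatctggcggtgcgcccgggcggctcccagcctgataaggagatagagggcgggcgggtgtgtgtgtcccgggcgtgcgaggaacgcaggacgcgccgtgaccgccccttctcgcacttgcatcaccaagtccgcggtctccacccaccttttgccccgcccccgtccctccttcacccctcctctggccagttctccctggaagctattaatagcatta
In Fos, TGACG starts 129 and 66 bases before the start site and TATAAA, the core of a TATA box, 33 bases before it. Fosb holds TGACG 60 bases before its start. Of the members not printed, Junb has TGACG at 136 and TATAAA at 30 bases before the start, and Fosl1 has CGTCA at 126 and 62. None of these letters were found in the windows of Fosl2, Jun, Jund and Atf3, which says nothing about the factors themselves. Over 22354 promoter windows of the same length, 19.45% held TGACG on either strand, 12.29% TATAAA and 3.785% TGAGTCA. No member's window held TGAGTCA or a CArG box, the serum response factor site, found in 1.329% of windows. The windows reach only 250 bases upstream, so a CArG box farther from the start site would be missed. The motifs were chosen after the sequences were seen, and a match is a description and not a bound site.

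Some of the partner anchors without a start site hold the letters that AP-1 itself binds. For each member, the shared partner anchor with no start site within 5 kb and the most double positive read pairs was searched for TGAGTCA on both strands. It was found in the anchors of 5 of 7 members with such an anchor, and the site nearest the middle is printed with 40 bases on either side, on the plus strand of mm9, with TGAGTCA or its complement TGACTCA in capitals.
Fosb, 17 kb upstream, chr7:19912657-19912743: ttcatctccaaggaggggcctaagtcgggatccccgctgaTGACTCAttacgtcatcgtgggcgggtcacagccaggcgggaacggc
Fosl2, 168 kb upstream, chr5:32269521-32269607: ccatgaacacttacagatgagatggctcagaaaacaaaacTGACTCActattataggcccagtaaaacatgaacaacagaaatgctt
Jun, 109 kb upstream, chr4:94828841-94828927: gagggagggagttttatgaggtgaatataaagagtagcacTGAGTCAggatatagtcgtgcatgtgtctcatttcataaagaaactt
Jund, 14.7 kb upstream, chr8:73206796-73206882: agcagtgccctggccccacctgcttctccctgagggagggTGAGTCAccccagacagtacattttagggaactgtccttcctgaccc
Atf3, 93.5 kb upstream, chr1:193099751-193099837: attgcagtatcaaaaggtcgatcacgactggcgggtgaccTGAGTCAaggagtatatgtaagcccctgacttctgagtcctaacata
The Jund anchor held 3 such sites and the others 1 each, while those of Fos and Junb held none. Among distal anchors of double positive loops within 10% of the same length, 35.3% (Fosb), 36.6% (Fosl2), 35.8% (Jun), 52.5% (Jund) and 52.4% (Atf3) held the site, so the site is common in anchors of this length. At the lengths of the Fos and Junb anchors, 38.9% and 39.1% held it.

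Across the family, 6 members (Fos, Fosb, Fosl1, Fosl2, Junb and Jund) had more contacts in double positive than in bulk libraries and 2 (Jun and Atf3) had fewer. Of all tested genes 20% were higher and 40.9% lower. With library size alone, without TMM, 6 members were higher and 0 lower, by edgeR and also at an unadjusted p under 0.05, and 7976 of all genes were higher and 3311 lower. The direction of Jun and Atf3 flips with library size alone, where their log2 fold changes were 0.36 and 0.42, not called and still below the median gene. On shared anchors 3 members (Fos, Fosb and Fosl2) were higher and 0 lower (0 also at an unadjusted p under 0.05), against 21.6% and 11% of the 9749 genes tested there. All double positive libraries lay above all bulk libraries for Fos, Fosb, Fosl2 and Jund, a pattern of 6.66% of tested genes. All lay below for Jun and Atf3, a pattern of 12.6%.

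**Figure D1:**
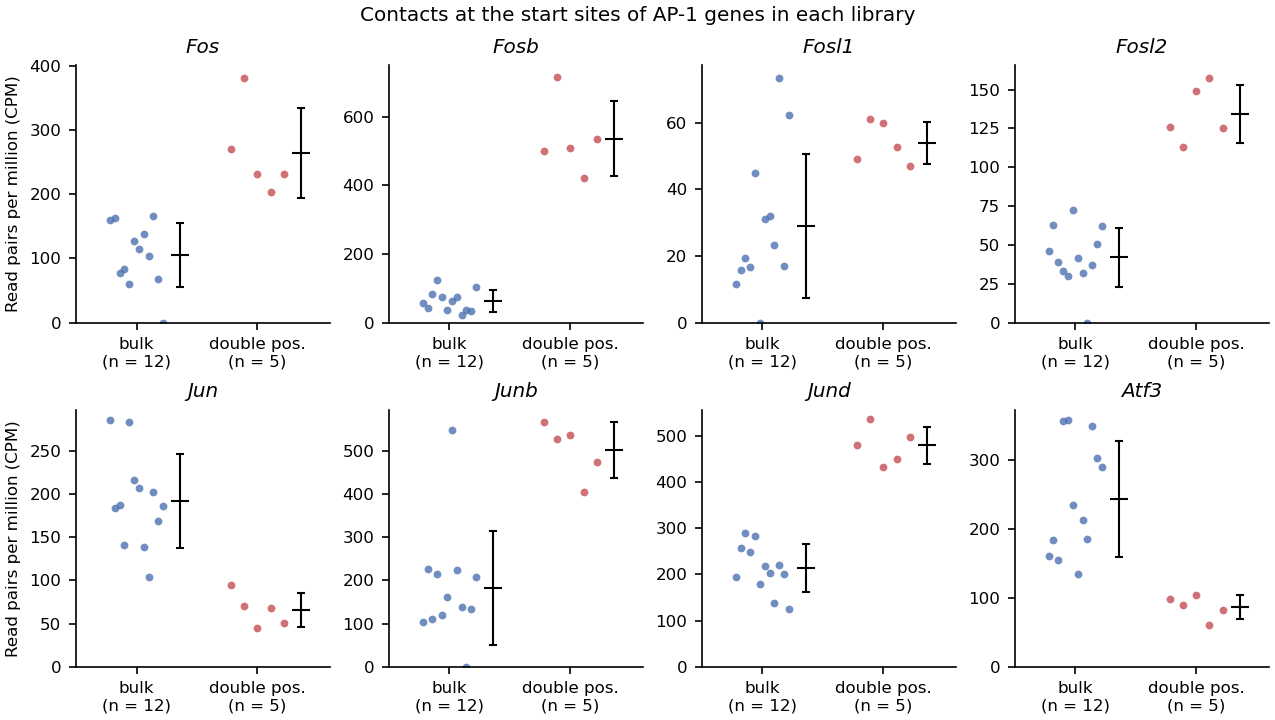
CPM (TMM scaled) at the start sites of the 8 AP-1 genes. Each point is a library, 12 bulk in blue and 5 double positive in red, and the bar beside each group is the mean ± SD. The groups overlap for Fosl1 and Junb, lie apart with double positive above for Fos, Fosb, Fosl2 and Jund, and lie apart with double positive below for Jun and Atf3, whose direction flips with library size alone.

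Fosb, a Fos protein that is an immediate early gene product, had the largest log2 fold change of the members on both sets of anchors. It lies at chr7:19888070-19895394 on the minus strand. The 5 double positive libraries had 143, 152, 68, 56 and 137 read pairs, or 501, 716, 508, 421 and 536 CPM. The bulk libraries ranged from 23.1 to 124 CPM with a median of 59.6, on 2 to 15 read pairs each. The groups lie far apart, with the lowest double positive library over 3 times the highest bulk one. The means were 536 ± 109 (SD, n = 5) and 62.7 ± 30.9 CPM (SD, n = 12), and the log2 fold change was 3.05 (SE 0.23, adjusted p = 1.19e-13 from edgeR). On shared anchors it was 2.33 (SE 0.25, adjusted p = 7.21e-18), still 1.99 above the median gene there.

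Fos, the founding member of the family, lies at chr12:86814840-86818223 on the plus strand. The double positive libraries had 77, 81, 31, 27 and 59 read pairs, or 269.9, 381, 231, 203 and 231 CPM. The bulk libraries ranged from 0 to 165 CPM with a median of 109, and replicate 12, the shallowest bulk library, had 0 read pairs. All double positive libraries were above all bulk libraries. The means were 263 ± 70.1 (SD, n = 5) and 105 ± 49.9 CPM (SD, n = 12), a 2.43-fold difference (log2 1.28, SE 0.26, adjusted p = 4.93e-05). On shared anchors the log2 fold change was 0.99 (SE 0.25, adjusted p = 0.000863). With spans of at least 20 kb, which drop its nearest distal anchors, the call was lost (log2 fold change 0.62, adjusted p = 0.062).

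Fosl2, which encodes FRA2, a Fos protein without a strong activation domain, lies at chr5:32438845-32460204 on the plus strand. Its double positive libraries had 36, 24, 20, 21 and 32 read pairs, or 126, 113, 149, 158 and 125 CPM. The bulk libraries reached 72.1 CPM at most, with a median of 40.1 and 0 read pairs in replicate 9. Again the groups did not overlap. The log2 fold change was 1.65 (SE 0.29, adjusted p = 9.68e-06) on all anchors and 1.55 (SE 0.36, adjusted p = 0.000167) on shared ones. The start site of Gm10463 lies on the same anchor, so its contacts cannot be separated from those of Fosl2.

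Fosl1, which encodes FRA1, had the fewest read pairs of the family, 28 in bulk and 54 in double positive libraries. It lies at chr19:5447703-5455945 on the plus strand. The double positive libraries had 14, 13, 8, 7 and 12 read pairs, or 49.1, 61.2, 59.7, 52.6 and 47.0 CPM. The bulk libraries had 0 to 4 read pairs each, from 0 to 73.5 CPM with a median of 21.2, and 2 bulk libraries lay above all double positive ones. The log2 fold change of 1.02 (SE 0.39, adjusted p = 0.0227) was not called without double positive replicate 2 (0.95, adjusted p = 0.0576), after thinning all libraries to the smallest (0.92, adjusted p = 0.135) or with spans of at least 20 kb (0.90, adjusted p = 0.0627). On shared anchors its sign turned, with -0.12 (95% interval -0.88 to 0.65, adjusted p = 0.847).

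Junb and Jund encode Jun proteins that are known to restrain Jun in many settings. Junb lies at chr8:87500811-87502617 on the minus strand and Jund at chr8:73221638-73224515 on the plus strand. For Junb, the double positive libraries had 162, 112, 72, 54 and 121 read pairs, or 568, 527, 538, 406 and 474 CPM. Its bulk libraries ranged from 0 (replicate 10) to 548 CPM (replicate 7, with 53 read pairs), with a median of 150.5. That replicate lay above 4 of the 5 double positive libraries, whereas the next bulk library reached only 226 CPM. The log2 fold change was 1.41 (SE 0.28, adjusted p = 3.97e-05), and 1.68 without bulk replicate 7. The anchor of Junb also holds the start site of Prdx2, a peroxiredoxin, and their contacts cannot be separated.

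For Jund, the double positive libraries had 137, 114, 58, 60 and 127 read pairs, or 480.2, 537, 433, 451 and 497 CPM, the least spread relative to the mean of all members. The bulk libraries ranged from 125 to 291 CPM with a median of 209.6. The groups lie apart, with a log2 fold change of 1.13 (SE 0.18, adjusted p = 1.63e-06). On shared anchors neither gene was called: Junb had 0.35 (95% interval -0.07 to 0.77, adjusted p = 0.199) and Jund 0.14 (95% interval -0.27 to 0.55, adjusted p = 0.639), both within 0.3 of the median gene there. The single anchor of Junb, with the same read pairs, was called higher on shared anchors when it was scaled and tested among anchors in place of genes (0.70, adjusted p = 0.0119), so that call depends on the level of the test. The median anchor tested on shared anchors had 0.53. The start site of Gm11175 shares the start-site anchor of Jund. When anchors with a start site of another gene were left out, Jund kept only its upstream anchor and was not called (log2 fold change 0.41, adjusted p = 0.128), and Fosl2 and Junb had no anchor left.

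Jun, the gene of the c-Jun protein, moved the other way with TMM scaling. It lies at chr4:94715725-94718913 on the minus strand. The double positive libraries had 27, 15, 6, 9 and 13 read pairs, or 94.6, 70.6, 44.8, 67.6 and 50.9 CPM. The bulk libraries had 9 to 35 read pairs each and ranged from 104 to 286 CPM with a median of 187, all above the highest double positive library. The log2 fold change was -1.48 (SE 0.26, adjusted p = 6.42e-06), or 1.05 below the median gene. The sign turned with library size alone (0.36, adjusted p = 0.228) and on shared anchors (0.24, 95% interval -0.49 to 0.97, adjusted p = 0.65). Of the bulk read pairs of Jun 87.6% lay on loops with an anchor that double positive loops did not use, against a median of 73.9% over tested genes.

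Atf3, a stress-induced bZIP factor that pairs with Jun proteins, lies at chr1:192994175-193007219 on the minus strand. Its double positive libraries had 28, 19, 14, 8 and 21 read pairs, or 98.1, 89.4, 105, 60.1 and 82.2 CPM. The bulk libraries ranged from 134 to 359 CPM with a median of 224, and none overlapped with the double positive ones. The log2 fold change was -1.42 (SE 0.25, adjusted p = 1.09e-05). It was 0.42 (adjusted p = 0.156) with library size alone and -0.27 (95% interval -0.89 to 0.34, adjusted p = 0.532) on shared anchors, so its direction also rests on the scaling. Atf3 lies in the part of chromosome 1 beyond 130 Mb, a stretch where nearly all genes were lower. Of 488 genes tested there, 452 were lower and 0 higher (0 also at an unadjusted p under 0.05), with a median log2 fold change of -4.54, and 82.4% of them lay below Atf3. On shared anchors the median of 238 genes there was -1.14, and 81.9% lay below Atf3. The part of this stretch in the result of Atf3 was not tested.

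**Figure D2:**
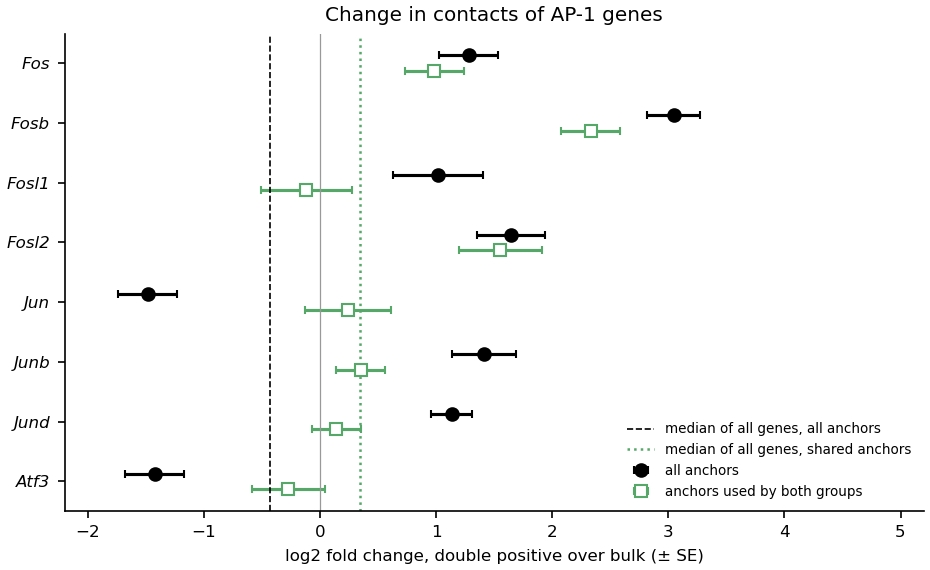
Log2 fold change of contacts, double positive over bulk, for each AP-1 gene with its standard error from edgeR, on all anchors (black circles) and on anchors used by both groups (green squares). Vertical lines mark the median of all tested genes, -0.43 on all anchors (dashed) and 0.34 on shared anchors (dotted). Fosb, Fos and Fosl2 lie right of both medians in both settings, while Jun turns its sign on shared anchors and with library size alone, Atf3 turns its sign with library size alone and Fosl1 on shared anchors.

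The share of bulk read pairs on anchors not used by double positive loops divided the family. It was 87.6% for Jun and 81.0% for Atf3, then 57.4% for Fosl2, 50% for Fos and 31.9% for Fosb. It was lowest for Jund (18.7%), Junb (15.7%) and Fosl1 (7.14%). Over tested genes the quartiles were 54.1% and 91.7%, so Jun, Atf3 and Fosl2 lay within the middle range and Fos, Fosb, Jund, Junb and Fosl1 below it. Restricting to shared anchors removed 183 of the 209 bulk read pairs of Jun and 2 of the 28 of Fosl1.

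**Figure D3:**
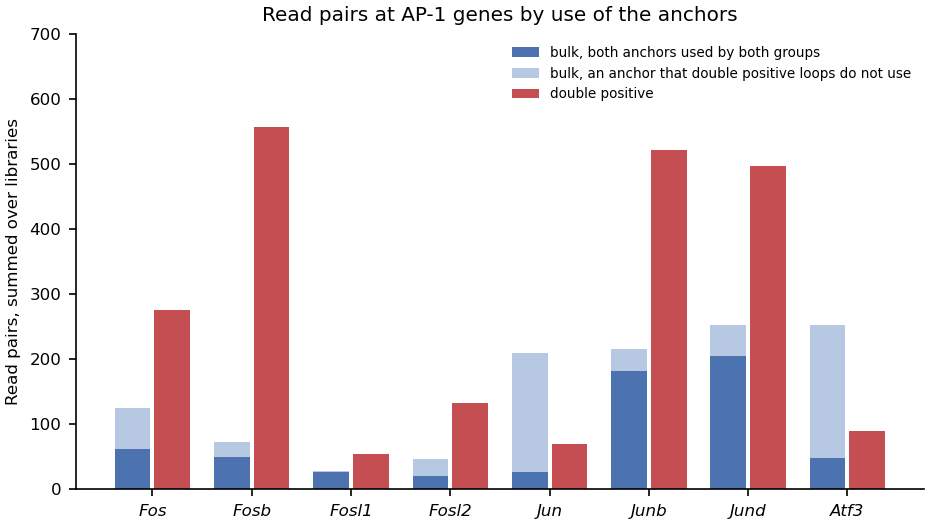
Read pairs at each AP-1 gene summed over the 12 bulk libraries (blue, split by whether both anchors are also used by double positive loops) and over the 5 double positive libraries (red), without scaling. Jun and Atf3 had most of their bulk read pairs on anchors that double positive loops did not use, 183 of 209 for Jun.

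Contact levels per kb of anchor ranked the members differently in the 2 groups. In bulk libraries Jun (52.0 ± 14.6 CPM per kb, SD, n = 12) and Atf3 (48.6 ± 16.8) led, followed by Junb (30.8 ± 22.4), Fos (26.9 ± 12.8) and Jund (26.4 ± 6.40). Fosb (10.7 ± 5.26), Fosl1 (9.30 ± 6.94) and Fosl2 (6.43 ± 2.90) came last. The only neighbours in this order that differed by more than the SD of both were Jund and Fosb. In double positive libraries Fosb led with 91.5 ± 18.6 CPM per kb (SD, n = 5), then Junb (85.0 ± 10.8), Fos (67.5 ± 18.0) and Jund (59.4 ± 5.01). Fosl2 (20.5 ± 2.84), Jun (17.8 ± 5.28), Fosl1 (17.4 ± 2.04) and Atf3 (17.3 ± 3.43) formed a lower group, with Jund and Fosl2 the only neighbours apart by more than both SDs. The width is that of all anchors of a member. For Fosb it includes an anchor of 2165 bp without double positive read pairs. Leaving that anchor out would raise the double positive value of Fosb per kb and widen its lead over Junb. Which neighbours lie apart thus depends on the width used. These orders are a description of levels, with no test between genes.

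The strongest double positive loops of Fos and Fosb ran to anchors near the genes. The 3 strongest loops held 66.9% of the double positive read pairs of Fos, against 32.3% in bulk libraries (64.5% on shared anchors). They held 43.2% of those of Fosb, against 22.2% (32.7% on shared anchors). For Fos these were an intergenic anchor 18.2 kb upstream (chr12:86795233-86798008), with 20, 23, 10, 9 and 14 read pairs in the double positive libraries and 14 in all bulk libraries together, and an anchor 12.9 kb downstream of the start site (chr12:86825685-86829732), with 18, 16, 10, 5 and 14 read pairs against 12. The log2 fold changes were 2.01 (SE 0.43, adjusted p = 1.66e-05) and 1.93 (SE 0.46, adjusted p = 9.48e-05). The third ran farther, to an anchor (chr12:86714256-86717846) at the start of Tmed10, a cargo receptor of the secretory pathway. It had 45 against 14 read pairs (log2 fold change 1.21, adjusted p = 0.0182). Nek9, a kinase gene of mitosis further upstream, had 30 against 1 (3.62, adjusted p = 1.45e-05). The start of Jdp2, itself a bZIP partner of Jun, was joined to Fos by 6 double positive and 3 bulk read pairs, too few for a test.

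For Fosb, 3 intergenic anchors 10, 17 and 24.1 kb upstream carried the most double positive read pairs. The middle one, the anchor whose TGACTCA site is printed above, had 27, 22, 10, 6 and 22 read pairs in the double positive libraries and 5 in all bulk libraries (log2 fold change 3.49, SE 0.52, adjusted p = 4.23e-10). The far one (chr7:19916100-19922794) had 85 against 4 read pairs (3.77, adjusted p = 9.08e-11) and the near one (chr7:19904393-19906435) 68 against 4 (3.40, adjusted p = 1.48e-08). Loops to the starts of Cd3eap and Ppp1r13l (61 against 7 read pairs, log2 fold change 2.58), Vasp, an actin regulator (39 against 2, 3.41), and Opa3 (30 against 4, 2.32) were also higher. Ercc1, a DNA repair gene between the distal anchors and Ppp1r13l, was joined to Fosb by 17 double positive and 0 bulk read pairs and was not tested. All 6 tested loops of Fosb were higher, against 38.1% of all tested loops. They passed the filter mostly through their double positive read pairs, so this count says little about Fosb.

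Fosl2 had the longest contacts of the higher members, with a median span of 438 kb in double positive and 365 kb in bulk libraries, weighted by read pairs. On shared anchors the bulk median was also 438 kb. Its strongest double positive partner lay 168 kb upstream inside Bre (chr5:32269489-32271907), with 8, 5, 3, 5 and 10 read pairs against 4 in bulk libraries (log2 fold change 2.32, SE 0.64, adjusted p = 0.000777). A second anchor inside Bre, 422 kb upstream, had 21 against 1 read pairs (3.13, adjusted p = 0.000121). The loop to the starts of Bre and Rbks, the one with the most bulk read pairs, had 19 against 5 and missed the threshold (1.37, adjusted p = 0.0511), but was higher on shared anchors (1.63, adjusted p = 0.016). The median of all loops tested on shared anchors was 1.27, and 52.1% of them were higher.

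The contacts of Junb and Jund ran mostly to anchors with a start site. For Junb such loops took 92.1% of double positive and 88.0% of bulk read pairs, and for Jund 86.1% and 77.4%, against 69.8% and 26.7% over all loops with a start site. The loop between the 2 anchors of Jund itself is counted in its shares. The anchor of Junb is also near the start of Prdx2, and its loops to other anchors at Prdx2 are counted too. On shared anchors the bulk shares were 92.9% for Junb, 84.4% for Jund and 61.1% over all such loops, so the difference between the groups turned for Junb. The strongest double positive loop of the family joined Junb to the start of Hook2, a microtubule linker gene 11.7 kb upstream, with 37, 34, 15, 22 and 35 read pairs against 33 in bulk libraries (log2 fold change 1.72, SE 0.35, adjusted p = 5.75e-06). The strongest bulk loop joined it to Prdx2 and Rnaseh2a, with 75 bulk and 76 double positive read pairs (-0.34, SE 0.34, adjusted p = 0.386). A second anchor at the same start sites (chr8:87488707-87491417) had 30 against 10 read pairs and missed the threshold (1.15, adjusted p = 0.0501), but was higher on shared anchors (1.42, adjusted p = 0.0127). The median of all loops tested on shared anchors was 1.27, and 52.1% of them were higher. Loops to Asna1 (41 against 11 read pairs, 1.42) and Tnpo2 (36 against 7, 1.85) were also higher.

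The 2 anchors of Jund did not behave alike. Its start-site anchor (chr8:73221481-73225837) had a log2 fold change of 1.82 on all and 1.01 on shared anchors (adjusted p = 2.01e-08 and 0.000388). The anchor just upstream (chr8:73214658-73218381) had 0.40 and -0.55 (adjusted p = 0.143 and 0.0829). The difference between these 2 anchors of Jund was not tested. Medians over all tested anchors were -4.38 on all and 0.53 on shared anchors. The start-site anchor gave the higher loops, to Lsm4, an RNA-binding Sm-like protein gene (98 against 35 read pairs, 1.08), to the starts of Ifi30, Mpv17l2 and Pik3r2 (30 against 2, 3.02), to Pgpep1 (25 against 5, 1.73) and to the distal anchor with 3 TGAGTCA sites (44 against 11, 1.53). The upstream anchor had 36 against 32 read pairs with Lsm4 (-0.19, adjusted p = 0.699).

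Jun had 92 loops with a bulk read pair and 9 with a double positive one, of which 6 were the same loops. The 3 strongest loops held 10.5% of its bulk read pairs and 64.3% of the double positive ones. The single strongest held 4.78% and 25.7%. On shared anchors, where 26 bulk read pairs were left, the 3 strongest held 69.2% of them. The loop to an anchor 109 kb upstream inside BC042782, with the most bulk read pairs, had 5, 2, 2, 4 and 5 read pairs against 10 in bulk libraries (0.45, SE 0.59, adjusted p = 0.512). The loop to Mysm1, a histone deubiquitinase gene, had 18 against 3 and was higher (1.88, SE 0.66, adjusted p = 0.00936), although Jun as a whole was lower with TMM scaling. The median span of its read pairs was 354 kb in bulk and 109 kb in double positive libraries, and 109 kb in both on shared anchors.

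Atf3 resembled Jun in that bulk read pairs were spread over 102 loops, against 21 in double positive libraries. Its strongest bulk loop, 19 read pairs, joined it to an anchor over the end of Atf3 itself (chr1:192992360-192998372, at the start of Fam71a) and had 0 double positive read pairs, which at this depth allows up to 3. Its strongest double positive loop, to the anchor 93.5 kb upstream that holds the printed TGAGTCA site, had 6, 7, 4, 3 and 6 read pairs against 12 in bulk libraries (0.70, SE 0.53, adjusted p = 0.24). Partners at start sites took 56.7% of its double positive and 26.9% of its bulk read pairs, and 66.7% of the bulk ones on shared anchors, where the direction turned. Fosl1 had no loop with more than 6 read pairs in either group, with the starts of AI837181 and Drap1 among the strongest in double positive and those of Banf1 and Eif1ad in bulk libraries, and none was tested.

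**Figure D4:**
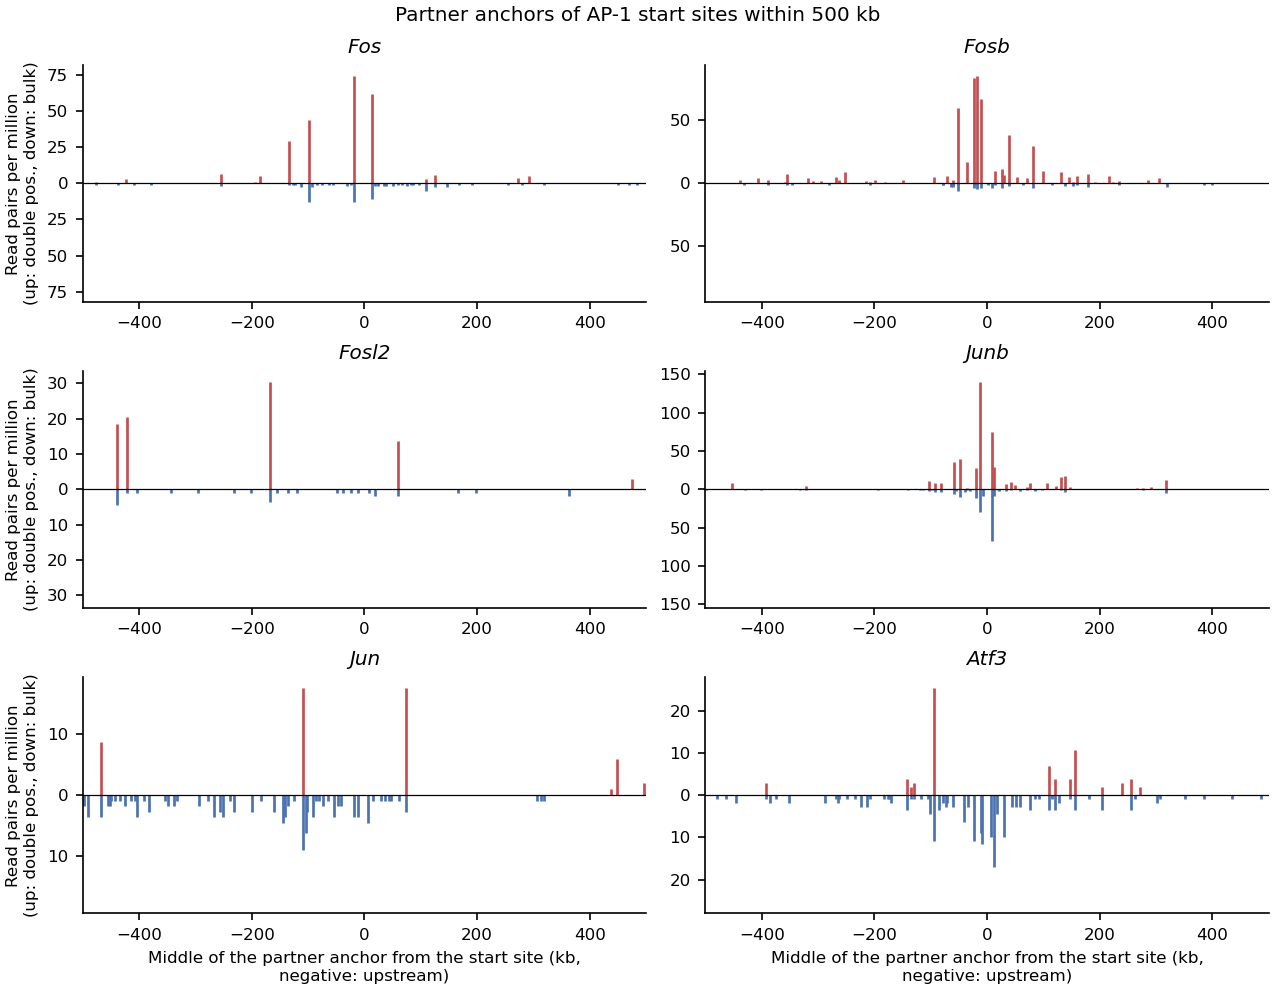
Partners of 6 AP-1 start sites within 500 kb. Each line is a partner anchor at its distance from the start site (negative, upstream on the gene's strand), and its height is the group's pooled CPM (TMM scaled), upward for double positive and downward for bulk libraries. The strongest double positive contacts of Fos and Fosb stand on anchors near the gene, while bulk contacts of Jun and Atf3 are spread over many anchors with few read pairs each.

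Of the 654 loops, 471 had a bulk read pair, 296 a double positive one and 113 both. Of these 30 had enough read pairs for a test and 21 were higher and 0 lower, against 38.1% and 22.4% of all 5369 tested loops. No loop was lower at an unadjusted p under 0.05 or with DESeq2 either, and with library size alone all 30 were higher, against 76.9% of all loops. On shared anchors 23 of the 30 were higher, among them all 21, and 0 lower (0 also at an unadjusted p under 0.05), against 52.1% and 11.5%. With at least 50 read pairs, where 14 were tested, 8 were higher and 1, that of Junb with Prdx2 and Rnaseh2a, was lower (log2 fold change -0.81, adjusted p = 0.0257), against 39.3% and 23.2%. A loop passed the filter mostly through its double positive read pairs, so this count says little about the family. The median log2 fold change was 1.72, against 0.78 over all tested loops. Of the 10 anchors 9 were tested, and 6 were higher and 2 (those of Jun and Atf3) lower, against 10.5% and 75.5% of tested anchors, while with library size alone 7 were higher and 0 lower, against 22.7% and 69.4%. The median tested anchor had -4.38 on all anchors, so the anchors of Jun (-1.28) and Atf3 (-1.22) lay above it. On shared anchors 5 member anchors were higher (those of Fos, Fosb, Fosl2 and Junb and the start-site anchor of Jund) and 0 lower, against 32.5% and 15.2%, and 1 was lower at an unadjusted p under 0.05. The median tested anchor had 0.53 there. The Fosb anchor not tested, inside the gene, had 9 bulk read pairs and was not used by double positive loops.

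The median span, weighted by read pairs, was 98.4 kb in bulk and 17.8 kb in double positive libraries for Fos, with the same bulk value on shared anchors. It was 57.7 (52.6 on shared anchors) and 35.8 kb for Fosb. For Atf3 it was 93.0 and 142 kb, and 142 kb in both on shared anchors. Over all loops with a start site the medians were 123 and 81.4 kb, and 78.4 kb in bulk libraries on shared anchors. These medians over read pairs were not tested.

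The genes around AP-1 were described by lists. Of 22 tested bZIP partners 9 were higher and 9 lower (17 and 3 with library size alone), with a median log2 fold change of -0.16 against -0.43 over all genes. The higher ones with the smallest p were Maff, a small MAF protein (1.81, SE 0.22), and Nfe2l2, the gene of the oxidative stress factor NRF2 (1.77, SE 0.25). Batf3 (chromosome 1, 192.9 Mb), a bZIP partner of Jun, had 86 bulk read pairs and 0 double positive ones, so it was lower and no fold is given. On shared anchors 7 of 18 were higher and 1 lower. Jdp2, the Fos neighbour, was not called (-0.37, adjusted p = 0.364).

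Among 31 tested kinases and factors upstream of AP-1, 6 were higher and 12 lower (20 and 7 with library size alone), with a median of -0.18. On shared anchors 7 of 23 were higher and 1 lower, with a median of 0.28, so the excess of lower genes was not seen there or with library size alone. Rps6ka1, a kinase downstream of ERK that phosphorylates Fos (1.43, SE 0.21), and Map2k1, the ERK kinase MEK1 (2.82, SE 0.50, on 60 against 8 read pairs), led the higher ones. Mkl1, a coactivator of serum response factor, and Braf, a kinase above MEK1, were lower with 105 and 83 bulk read pairs and 0 in double positive libraries. Of 17 genes that damp MAPK signals or their transcripts, 3 were higher and 8 lower (median -0.79), or 9 and 3 with library size alone. On shared anchors 1 of 16 was higher and 4 were lower, and the median turned to 0.28. Zfp36l2 (1.15, SE 0.26) and Spred3 (1.18, SE 0.30) led the higher ones, the latter not called on shared anchors (0.47, adjusted p = 0.216), and the phosphatase genes Dusp10 (-2.40, SE 0.23) and Dusp6 (-2.71, SE 0.34) the lower ones. Dusp10, on chromosome 1 at 185.8 Mb, had 0.49 on shared anchors (adjusted p = 0.343), and Dusp6 stayed lower there with -1.44 (adjusted p = 0.000625).

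Among 26 tested genes that AP-1 is known to regulate, 11 were higher and 6 lower (20 and 2 with library size alone), with a median of 0.49, and on shared anchors 11 of 24 were higher and 2 lower (median 0.83 against 0.34 over all genes). The simple epithelial keratins Krt18 (585 ± 94.5 CPM, SD, n = 5, against 77.3 ± 33.3, SD, n = 12, log2 fold change 2.87) and Krt8 (2.87) led the higher ones, which are also genes of epithelia such as endoderm. Mmp9, a matrix protease gene, was lower on all anchors (-1.46, SE 0.26) and on shared anchors (-2.29), and its direction flipped with library size alone (0.39, adjusted p = 0.185). Fn1, fibronectin, had 31 bulk and 0 double positive read pairs. Lists were chosen with results of these data known, and nothing is said of them beyond these counts.

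Marker genes set the cell content of the groups beside the AP-1 values. Extraembryonic endoderm markers had a summed level of 1588 to 2039.5 CPM in double positive and 1109 to 1641 CPM in bulk libraries. Of 18 tested, 7 were higher and 4 lower on all anchors (14 and 3 with library size alone), and 10 of 15 higher and 0 lower on shared ones. Col4a1 and Col4a2 are counted apart, although their values on shared anchors were identical (3.22, on 256 double positive read pairs each). The counts and summed levels of this list thus hold the same read pairs more than once. Col4a1 (2.20, SE 0.26) and Sparc (1.91, SE 0.23), genes of the basement membrane, led, whereas Hnf4a and Lamc1 had 262 bulk read pairs each and 0 double positive ones and so go against the label on this measure. Lamc1 lies on chromosome 1 at 155.1 Mb, in the stretch that holds Atf3, and Hnf4a on chromosome 2 at 163.3 Mb. The sorting markers were not called on all anchors, with 25 against 13 read pairs for Epcam (0.96, adjusted p = 0.148) and 51 against 36 for Cd38 (0.57, adjusted p = 0.262), and Cd38 was higher on shared anchors (1.78, adjusted p = 0.00765).

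Neural markers summed to 276 to 368 CPM in double positive and 1229 to 2555 CPM in bulk libraries, with 9 of 11 lower and 0 higher (7 and 2 with library size alone, and 0 higher at an unadjusted p under 0.05), Pou3f2 (-5.24, SE 0.38, 8 against 374 read pairs) and Pax6 (-3.26, SE 0.29) first. On shared anchors 7 of 9 were lower. Mesoderm and endothelial markers summed to 306 to 381 and 526 to 867 CPM, with 4 of 7 lower and 0 higher (4 and 2 with library size alone), and Mixl1 and Pecam1 had 0 double positive read pairs against 170 and 66. Their median was -4.87, or -3.24 with genes at 0 put at 3 read pairs over the group, and on shared anchors 2 of 3 were lower. Mixl1 lies on chromosome 1 at 182.6 Mb, in the stretch that holds Atf3, and Pecam1 on chromosome 11 at 106.5 Mb. Of 5 tested pluripotency markers 3 were higher, among them Klf4 (1.36, SE 0.44) and Tdgf1 (0.93, SE 0.33), and 2 lower, Sox2 (-4.17, SE 0.57) and Esrrb (81 against 0 read pairs). On shared anchors 2 of 3 were higher. Their summed level was 158 to 297 CPM in double positive and 173 to 397 CPM in bulk libraries. The part of cell content in the AP-1 values was not tested.

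**Figure D5:**
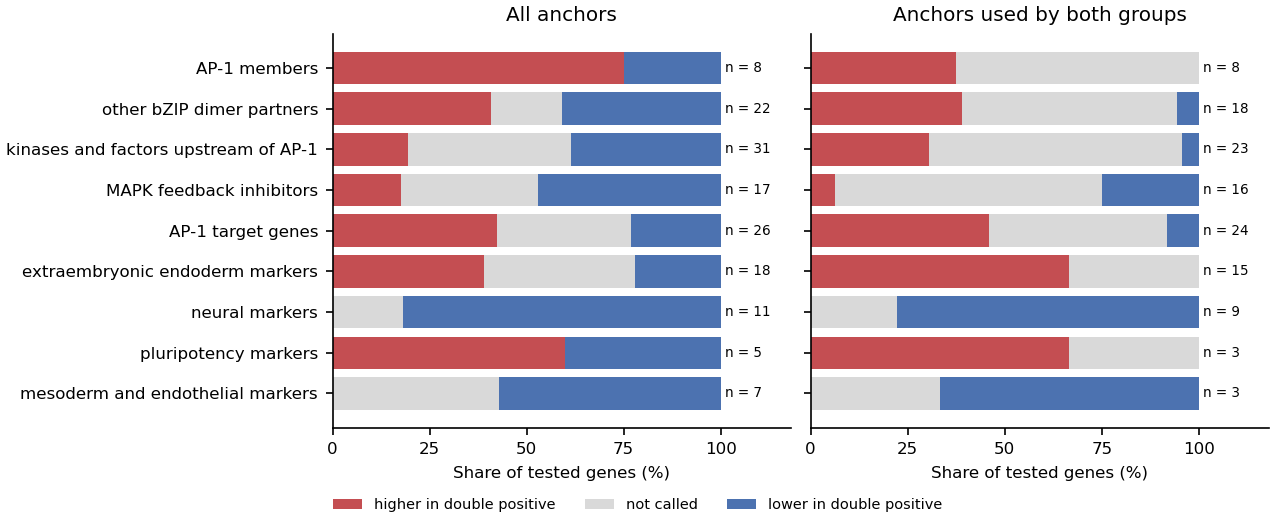
Share of the tested genes of each list that were called higher (red) or lower (blue) in double positive libraries by edgeR, or not called (grey), on all anchors (left) and on anchors used by both groups (right), with the number tested beside each bar. On all anchors 6 of 8 AP-1 genes were higher and 2 lower (with library size alone these 2 were not called), and on shared anchors 3 were higher. With library size alone 2 neural and 2 mesoderm markers were higher, and on these 2 sets of anchors with TMM scaling 0.

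Among genes that share no anchor with it, those most like Atf3, the member with the most bulk read pairs, included Sccpdh (Pearson's r = 0.84) and Phactr3 (r = 0.82), over log2(CPM + 1) values of the 12 bulk libraries and 13711 genes compared. Sccpdh lies on chromosome 1 and Phactr3 on chromosome 2. All points share the depth of their library, and no p is given.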

How the data were processed

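The authors mapped H3K27ac HiChIP reads to mm9 with HiC-Pro and called peaks and loops with hichipper. The counts they deposited are the read pairs joining 2 anchors in each library, without normalization, and loops without a read pair are not listed. Which libraries gave the peaks behind the anchors is not given in the sources used here. Overlapping anchors were joined into 216081 (700 read pairs inside 1 joined anchor were dropped), and start sites came from protein-coding transcripts of GENCODE vM1 on mm9. Genes, loops and anchors that had 20 or more read pairs in all and were seen in 5 or more libraries were tested with edgeR 4.0.16 in R 4.3.3 (TMM, quasi-likelihood test, Benjamini-Hochberg over all features tested), without covariates. The members and lists were chosen with earlier results of these data known. Named are all members, their strongest and called loops, the 2 genes of each list with the smallest p in each direction, Epcam, Cd38 and genes sharing an anchor with a member. A symbol with several gene records (Atf7) was counted once, by the record with the most read pairs. A few genes that this rule names are not reported here. Not analysed here were Cebpd, Map2, Sox1 and Tfcp2l1. Alternatives were DESeq2 1.42.0, library size alone, other filters, shared anchors, thinning to 50508 read pairs, spans of at least 20 kb, a window of 2.5 kb, anchors with no other start site, a replicate block and leaving out each library. The tests were tried on simulated data. Read pairs amplified by PCR are not independent molecules, so a limit of 3 counts for a count of 0 covers counting error only.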

Additional observations from a re-analysis of the deposited data

Results flagged for a closer look

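The contacts of Fos on shared anchors were 922 CPM in double positive replicate 2, away from the other 4 double positive libraries at 519 to 633 CPM. The distance to the next library took up 0.717 of the whole range, where 0.71 is the limit for groups of 5. Of 16 such groups 1 passed the limit, and chance alone would pass about 1 in 20. Leaving this library out gave Fos a log2 fold change of 1.11 on all anchors, in place of 1.28, and the call held there (adjusted p = 0.000973 from edgeR). The test on shared anchors, where the library was flagged, was not repeated without it.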

How the results depend on the processing

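Leaving out each library in turn gave 5 to 6 higher and 2 lower genes, 15 to 22 higher and 0 lower loops, and 6 higher and 2 lower anchors among the members, against 6, 2, 21, 0, 6 and 2 with all libraries. The call lost was that of Fosl1 without double positive replicate 2. On shared anchors 3 members were higher and 0 lower, and 0 anchors were lower, a setting that leaves out anchors without double positive read pairs. With library size alone 0 genes and 0 anchors were lower. With anchors that hold no other start site 3 of 6 tested genes were higher. With at least 50 read pairs 8 loops were higher and 1 lower, of 14 tested. Log2 fold changes that changed sign were those of Fosl1 on shared anchors (-0.12), Jun on shared anchors (0.24) and with library size alone (0.36), and Atf3 with library size alone (0.42). Of 222 values for members, 210 kept direction and call, 8 lost the call and 4 changed sign. With the replicate block over replicates 1 to 5, 12 loops were higher, against 14 in the same 10 libraries without it, a setting added after the data were seen, and the 6 higher and 2 lower genes and anchors did not change in number. Same-numbered libraries did not deviate together (correlations from -0.014 to 0.005), so the numbers were not taken as pairs. Where not given, the cause was not tested. Depth limits Fosl1 and single loops most, since 3 read pairs come to 12.4 to 46.0 CPM in a bulk and 25.4 to 59.4 CPM in a double positive library before TMM scaling.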
